A study of Mus musculus with 2 samples.

Results

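The genes described here build, break down and dispose of glycogen in muscle, and they are *Gys1*, *Gbe1*, *Pygm*, *Phka1*, *Phkg1*, *Ppp1r3a*, *Ppp1r3c*, *Stbd1* and *Epm2a*. The list of genes was made with earlier results of these data known, so shares set beside those of all genes are descriptive. Probes were then taken by name and not by their values. Every probe on the arrays that is no control and carries one of these names, or an older name of the same gene, was taken. This gave 9 genes with 14 of 41069 probes, and the 9 genes are part of 13571 genes that could be compared. *Stbd1* is on the arrays under its older name *D5Ertd593e*. RNA came from the gastrocnemius (GAS) muscle of male C57BL/6 mice, 15 weeks old and fed a normal diet, either WT or with *Gde5* (*Gpcpd1*) deleted in skeletal muscle (*Gde5* skKO). In the *Gde5* skKO mice, exon 11 of a floxed *Gde5* allele is removed by Cre under the human alpha-skeletal actin promoter (HSA-Cre), which is active in muscle fibres and leaves the gene in the other cells of the tissue. The study's methods name *Gde5* flox/flox littermates as controls of several experiments, but the labels of the arrays say only that the controls were WT. The 2 two-colour Agilent arrays each hold both genotypes, with *Gde5* skKO RNA in Cy5 on array 1 and in Cy3 on array 2. The design text names 5 mice, and neither it nor the labels say whether RNA was pooled. The study describes array comparisons both after a glucose injection and after fasting. The sources used here do not say which of these states the mice of the present arrays were in. They also do not say whether both arrays hold the same RNA or mice in the same state. A difference in state or RNA between the arrays could not be told apart from one of dye. The means and tests below take both arrays as 1 comparison.

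Glycogen is the glucose store of the muscle fibre. Glycogen synthase lengthens its chains and the branching enzyme adds branch points. Glycogen phosphorylase releases glucose 1-phosphate from the chain ends once phosphorylase kinase has switched it on. Protein phosphatase 1, brought to the particle by targeting subunits, drives synthesis by taking phosphate off these enzymes. A smaller part of the glycogen reaches the lysosome by glycophagy, in which an adaptor ties the particle to the autophagosome, and laforin and malin guard the particle's solubility.

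The sequence before the start site of 3 of these genes is shown because they span the range of base composition among the 9 and hold the GC, CCAAT and TATA boxes that were searched for. All 9 genes matched the RefSeq table of promoters (GRCm38.p6), and the 250 bases before each start listed there were read on the gene's strand. That start is not always the outer end of the gene. The *Epm2a* window, chr10:11343195-11343444, lies inside the gene, which begins at 11342691, and the windows of *Phka1* and *Phkg1* overlap their genes. Capitals mark GGGCGG (GC box), CCAAT (the CCAAT box), TATAAA (the TATA box) and 1 spelling of the site of the muscle factor MEF2, on either strand. That MEF2 spelling contains TATAAA when read in reverse. The windows are chr5:92602801-92603050 (+) for *Stbd1*, chr7:45434589-45434838 (+) for *Gys1* and chr6:14755275-14755524 (-) for *Ppp1r3a*.
Stbd1: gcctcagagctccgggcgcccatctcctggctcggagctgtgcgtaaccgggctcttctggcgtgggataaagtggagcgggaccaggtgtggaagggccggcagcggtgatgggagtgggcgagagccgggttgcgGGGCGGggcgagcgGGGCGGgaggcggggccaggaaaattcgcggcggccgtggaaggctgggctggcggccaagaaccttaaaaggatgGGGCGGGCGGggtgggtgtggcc
Gys1: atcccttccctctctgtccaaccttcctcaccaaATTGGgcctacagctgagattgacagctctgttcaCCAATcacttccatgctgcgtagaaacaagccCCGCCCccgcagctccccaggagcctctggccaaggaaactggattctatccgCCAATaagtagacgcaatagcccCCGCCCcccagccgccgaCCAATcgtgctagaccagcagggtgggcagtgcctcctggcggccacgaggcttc
Ppp1r3a: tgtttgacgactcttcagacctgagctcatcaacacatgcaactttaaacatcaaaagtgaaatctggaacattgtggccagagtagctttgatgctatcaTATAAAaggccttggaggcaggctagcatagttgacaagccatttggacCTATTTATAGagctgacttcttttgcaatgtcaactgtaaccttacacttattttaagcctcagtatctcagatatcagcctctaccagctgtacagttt
The *Stbd1* window had the highest share of G and C among the 9, 71.2%, against a median of 52.4% over 32851 windows, and held GGGCGG at 4 positions of which 2 overlap. The *Gys1* window, at 60%, held CCAAT 4 times and GGGCGG 2 times. The *Ppp1r3a* window had the lowest share, 40.4%, and was the only one of the 9 with the MEF2 spelling searched, which 0.14% of all windows held. GGGCGG was in the windows of *Gys1*, *Phka1*, *Stbd1* and *Epm2a*, 4 of 9, against 32.7% of all windows. CCAAT was in those of *Gys1*, *Phkg1* and *Ppp1r3c*, against 33.8%, and TATAAA in that of *Ppp1r3a* alone, against 12.4%. The E-box CANNTG was in 8 of 9, all but *Epm2a*, against 66.2%, and its form CACGTG, which is also counted as CANNTG, was in that of *Ppp1r3c*, against 6.02%. The FoxO motif GTAAACA was in none of the 9, against 3.17%.

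Every value below is a log2 ratio of *Gde5* skKO over WT for 1 probe, or the spot signal behind it in arbitrary units, which allows no comparison of levels between probes. Agilent's Feature Extraction software gives each spot an error and a p-value from its own model of that hybridization. A gene passed on an array when this p-value was under 0.05, and it was called when it passed on both arrays in the same direction. The spread between mice does not enter such a call, and no test across mice was made. An exact sign-flip test over 2 arrays could not go below a p-value of 0.5. The median error of a ratio was 0.209 on array 1 and 0.211 on array 2, so that a ratio of about 0.41 on each was needed for a call. For the 13 probes of the 9 genes that were bright enough, the errors lay between 0.184 and 0.224. Spots well above background made up 44.6% to 53.2% of the 43379 spots per array, depending on channel. Across genes, ratios of the 2 arrays had a Pearson r of -0.08, and 212 genes passed the same threshold in the direction of the dye, or 1.56%, against 450 in the direction of the genotype.

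*Gde5* itself, listed as *Prei4*, has 4 probes on the minus strand of chromosome 2 (mm8). The 3 probes from 132221088 to 132225598 had ratios between -2.59 and -3.29 on both arrays. For the first of them, from 132221088 to 132221147, the signal was 2229 in *Gde5* skKO and 13392 in WT on array 1, and 1850 and 17840 on array 2. The probe from 132256048 to 132256107, had signals of 6679 and 6917 on array 1 and of 5512 and 7610 on array 2, with ratios of -0.05 and -0.47. This probe was the brightest by the mean of log2 signals, the measure used for every gene, so *Gde5* was not called by that rule. By the plain mean of signals another probe was the brightest, and *Gde5* was called lower with a mean ratio of -2.93.

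Of the 9 glycogen genes, 1 was called higher in *Gde5* skKO muscle, *Stbd1*, the adaptor of glycophagy, and none was called lower. Among all 13571 genes, 1.58% were called higher and 1.74% lower. On array 1, *Gbe1* and *Stbd1* passed as higher, as did 6.82% of all genes, and *Epm2a* passed as lower, as did 5.31%. On array 2, *Gys1* and *Stbd1* passed as higher, as did 7.13% of all genes, and none of the 9 as lower, against 6.71%. In either direction 12.1% of all genes passed on array 1 and 13.8% on array 2, while 4 of the 9 and 21.1% of all genes passed on at least 1 array. The ratio had the same sign on both arrays for all 9, positive for 5 and negative for 4, against 54.5% of all genes and 56.8% of those with signal in both channels on both arrays. The median of the 9 mean ratios was 0.03, against 0.01 over all genes, and the means ranged from -0.45 for *Epm2a* to 0.54 for *Stbd1*. Without regard to sign, the median mean ratio was 0.25 for the 9 genes and 0.14 over all genes. All 9 brightest probes were well above background in every channel, and none was saturated.

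**Figure D1:**
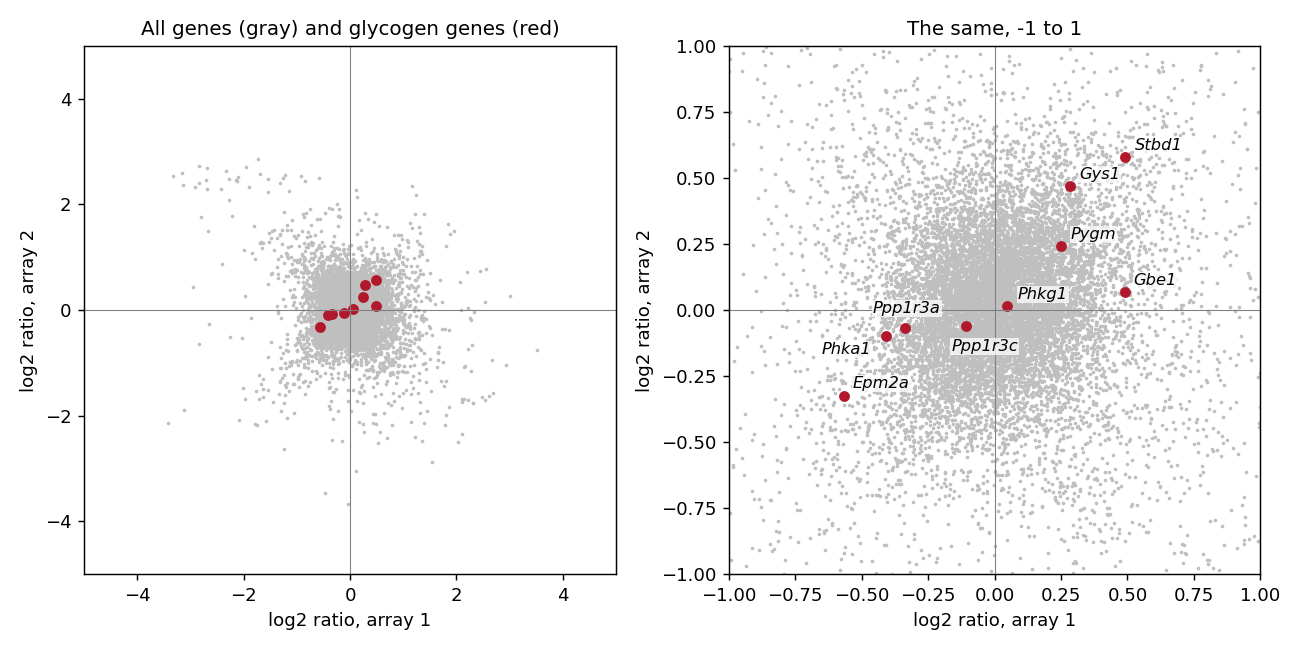
Log2 ratio of *Gde5* skKO over WT on array 1 (horizontal) and array 2 (vertical) for each of 13571 genes in gray and for the 9 glycogen genes in red, over the full range (left) and from -1 to 1 (right). The 9 genes lie where both ratios are negative or both are positive, from *Epm2a* at -0.57 and -0.32 to *Stbd1* at 0.49 and 0.58.

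Of the synthesis enzymes, neither was called, and both had positive ratios. *Gys1* encodes muscle glycogen synthase, and its probe lies at chr7:45323618-45323677 (mm8, plus strand). Its signal was 1581 in *Gde5* skKO and 1298 in WT on array 1, and 2159 and 1559 on array 2, so that both *Gde5* skKO signals lay above both WT signals. The ratios were 0.28 and 0.47, and the second passed. Their mean was 0.38 ± 0.13 (SD of the arrays), a 1.30-fold level. The 95% interval from the spot errors, 0.09 to 0.66, lay above 0, although *Gys1* did not pass on array 1. Limma's moderated test of both arrays gave *Gys1* a mean of 0.36 ± 0.0993 (SE), with an adjusted p = 0.260 over all genes.

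*Gbe1* encodes the branching enzyme, with a probe at chr16:70452275-70452334 (plus strand). The signal was 14388 in *Gde5* skKO against 10248 in WT on array 1, and 11902 against 11352 on array 2. Here the arrays gave unequal ratios, 0.49, which passed, and 0.07, and the mean of 0.28 ± 0.30 (SD of the arrays) was smaller than their spread. The interval of the mean reached from -0.01 to 0.57.

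The genes of breakdown gave no call. *Pygm* encodes muscle glycogen phosphorylase, the enzyme lost in McArdle disease, and its probe was placed at chr19:6397893-6398064 (plus strand). The signal was 14032 against 11786 on array 1 and 14085 against 11908 on array 2, so that *Gde5* skKO exceeded WT by almost the same amount on each. The ratios were 0.25 and 0.24, and neither passed. The arrays differed little, with an SD of 0.0067 around the mean of 0.25, but the error of each spot was larger than that, and the interval of the mean was -0.04 to 0.53.

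Phosphorylase kinase is represented by its muscle forms of the regulatory alpha subunit, *Phka1*, and the catalytic gamma subunit, *Phkg1*. The *Phka1* probe, placed at chrX:98720193-98723509 (minus strand), had signals of 738 in *Gde5* skKO and 979 in WT on array 1 and of 1063 and 1138 on array 2. Its ratios, -0.41 and -0.10, were both negative and did not pass, the first by little, with a mean of -0.25 ± 0.22 (SD of the arrays) and an interval of -0.54 to 0.03. The *Phkg1* probe, at chr5:130148866-130148925 (minus strand), had signals of 1745 and 1688 on array 1 and of 1515 and 1500 on array 2. Of the 9 genes it lay nearest to 0, with ratios of 0.05 and 0.01, and the interval of its mean, -0.25 to 0.31, bounds any difference at these errors.

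**Figure D2:**
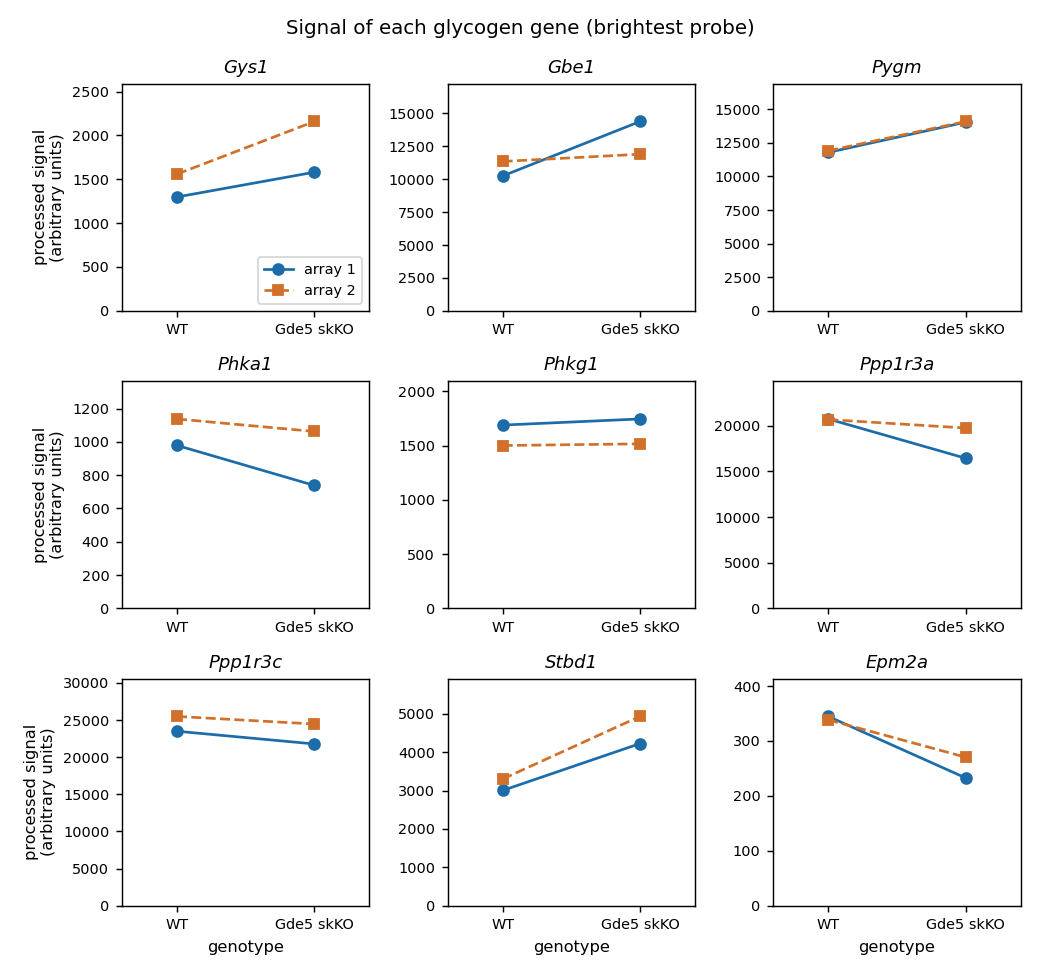
Processed signal (arbitrary units, each panel on its own axis from 0) of the brightest probe of each of the 9 glycogen genes in WT and *Gde5* skKO, with a line for each array. Both lines slope up from WT to *Gde5* skKO for *Gys1*, *Gbe1*, *Pygm*, *Phkg1* and *Stbd1*, and both slope down for *Phka1*, *Ppp1r3a*, *Ppp1r3c* and *Epm2a*, where of these only *Stbd1* was called.

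Neither targeting subunit of protein phosphatase 1 was called. *Ppp1r3a* encodes the large muscle subunit that holds the phosphatase at glycogen and the sarcoplasmic reticulum, and its 3 probes on the minus strand of chromosome 6 did not go one way. The brightest, at chr6:14664312-14664371, had a signal of 16442 in *Gde5* skKO and 20745 in WT on array 1 and of 19752 and 20681 on array 2, for ratios of -0.34 and -0.07. The probe at chr6:14704683-14704742 had signals of 3737 and 2901 on array 1 and of 3308 and 3226 on array 2, for ratios of 0.37 and 0.04. The remaining probe, at chr6:14663675-14663734, was well above background in 1 of 4 channels and did not pass the filter on dim probes, with ratios of 0.17 and 0.45. No probe passed on either array. The mean of *Ppp1r3a* was -0.20 by the brightest probe, 0.00 over both probes that were bright enough and 0.10 only when the dim probe was averaged in, so its direction was not settled.

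*Ppp1r3c* encodes the targeting subunit known as PTG, and both of its probes on the minus strand of chromosome 19 had negative ratios. At chr19:36797111-36797170 the signal was 21786 in *Gde5* skKO and 23500 in WT on array 1, and 24471 and 25494 on array 2, with ratios of -0.11 and -0.06 and an interval of the mean of -0.37 to 0.20. At chr19:36798441-36798500 it was 594 and 681 on array 1 and 563 and 743 on array 2, with ratios of -0.20 and -0.40, of which the second passed.

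*Stbd1* encodes the starch-binding domain protein that carries glycogen to the autophagosome, and it was called higher in *Gde5* skKO muscle. Its brightest probe, at chr5:93681311-93681370 (mm8, plus strand), had a signal of 4222 in *Gde5* skKO and 3001 in WT on array 1, and of 4929 and 3300 on array 2. Both *Gde5* skKO signals lay above both WT signals, and the ratios were 0.49 with a spot error of 0.209 and 0.58 with one of 0.211. The mean ratio was 0.54 ± 0.0612 (SD of the arrays), a 1.45-fold level, with an interval of 0.24 to 0.83. Of the 13571 genes, 97.3% had a lower mean.

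The other 2 probes of *Stbd1* were designed on a cDNA and overlap each other, so they are not independent of one another. The probe at chr5:93679843-93679902 had signals of 336 in *Gde5* skKO and 251 in WT on array 1 and of 316 and 217 on array 2, with ratios of 0.42 and 0.54, which both passed. The probe at chr5:93679823-93679882 gave 237 and 226 on array 1 and 325 and 210 on array 2, with ratios of 0.07 and 0.63, of which the second passed. All 3 probes thus had positive ratios on both arrays. Limma's moderated test gave the brightest probe 0.49 ± 0.0981 (SE), with an adjusted p = 0.0882 over all genes. An adjusted p-value under 0.05 was reached by 0.774% of all genes and by none of the 9. Before adjustment, limma's p-value was under 0.05 for *Stbd1* and *Gys1* as higher, where 4.24% of all genes were, and for *Epm2a* as lower, where 4.26% were. With a p-value under 0.01 asked for on both arrays, *Stbd1* was not called either.

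*Epm2a* encodes laforin, the glycogen phosphatase lost in Lafora disease, and its ratios were the lowest of the 9. The probe, at chr10:11147702-11147760 (plus strand), had a signal of 233 in *Gde5* skKO and 345 in WT on array 1, and of 270 and 338 on array 2. Both *Gde5* skKO signals lay below both WT signals. The ratios were -0.57 and -0.32, so *Epm2a* passed on array 1 and was not called. Its mean of -0.45 ± 0.17 (SD of the arrays) had an interval of -0.74 to -0.15. Under limma's normexp and loess ratios the mean of *Epm2a* was smaller, at -0.27 ± 0.0975 (SE), with an adjusted p = 0.467.

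**Figure D3:**
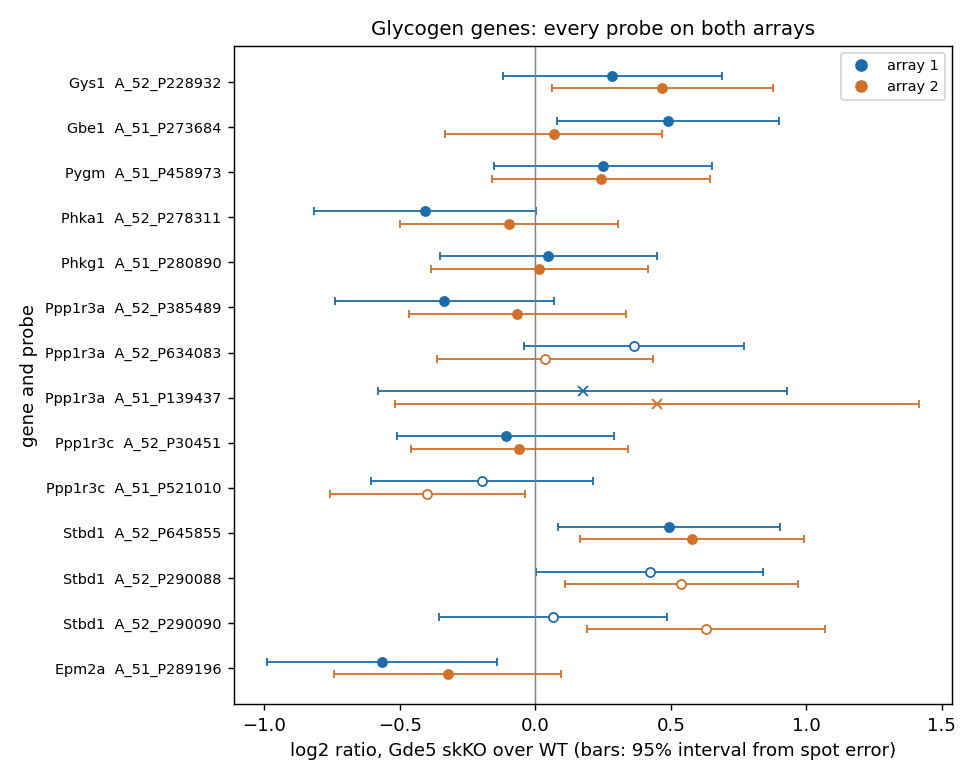
Log2 ratio of *Gde5* skKO over WT (horizontal) of all 14 probes of the 9 glycogen genes on each array. Filled points are the brightest probe of a gene, open points its other probes and crosses the probe that was not well above background, and bars are 95% intervals from the spot error. Both bars clear 0 for 2 probes of *Stbd1* and for no probe of another gene.

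A further 45 genes of glycogen metabolism and its control were listed from general knowledge. They were not picked for how they moved, but earlier results of these data were known. All 45 are on the arrays, and 41 could be compared, since *Pgm2*, *Ppp1r3b*, *Ppp1r3e* and *Ppp1r3g* were too dim. By Feature Extraction's p-value on both arrays, none of the 41 was called higher and none lower, where 3.32% of all genes were called in either direction. On 1 array only, 13 of the 41 passed, where 16.2% of all genes did, and 28 passed on neither. Limma's moderated test gave 8 of the 41 an unadjusted p under 0.05, against 8.5% of all genes, and none after adjustment. The ratio was positive on both arrays for 10 genes, negative on both for 17 and of opposite sign for 14. Their median mean ratio was -0.05, against 0.03 for the 9 genes described above, and they ranged from -0.50 to 0.47.

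The closest relatives of the 9 genes are given here by role and by their brightest probe, none of them called. Other probes of some gave other means. Means of single probes lay from -0.10 to 0.61 for *Phka2*, -0.10 to 0.43 for *Phkb* and -0.01 to 0.35 for *Phkg2*. They lay from -0.69 to -0.48 for *Pygl* and from -0.50 to 0.20 for *Pygb*. On the side of synthesis, the liver isoform of the synthase, *Gys2*, had ratios of 0.07 and 0.38, glycogenin, *Gyg*, which primes the particle, had -0.13 and -0.23, and *Ugp2*, which makes UDP-glucose, had 0.05 and 0.21. Phosphoglucomutase *Pgm1* (named Pgm2 on the arrays, its older mouse name), which links glucose 1-phosphate to glycolysis, had 0.00 and -0.24. Of the phosphorylases, the liver isoform *Pygl* had signals of 237 in *Gde5* skKO and 343 in WT on array 1 and of 245 and 331 on array 2, with ratios of -0.53, which passed, and -0.43, which did not. Both ratios of *Pygl* were thus negative, beside the positive ratios of the muscle isoform *Pygm*. The difference between *Pygl* and *Pygm* was not tested. The brain isoform *Pygb*, not well above background in every channel, had ratios of 0.58 and -1.58, which go opposite ways.

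Among the other subunits of phosphorylase kinase, *Phka2* had ratios of 0.13 and 0.53, passing on array 2, *Phkb* 0.00 and -0.10 and *Phkg2* -0.17 and 0.16. The lysosomal glucosidase *Gaa*, which digests glycogen delivered by glycophagy, had 0.00 and 0.03. The phosphatase subunit *Ppp1r3d* had 0.58 and 0.36, passing on array 1, with the highest mean of the 41 at 0.47. Malin, encoded by *Nhlrc1* and the partner of laforin, had 0.15 and -0.07. *Gabarapl1*, the autophagosome protein that *Stbd1* binds, had 0.21 and -0.01, and its homologue *Gabarap* had -0.10 and 0.48, passing on array 2. Both were chosen for mention after their values were seen.

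**Figure D4:**
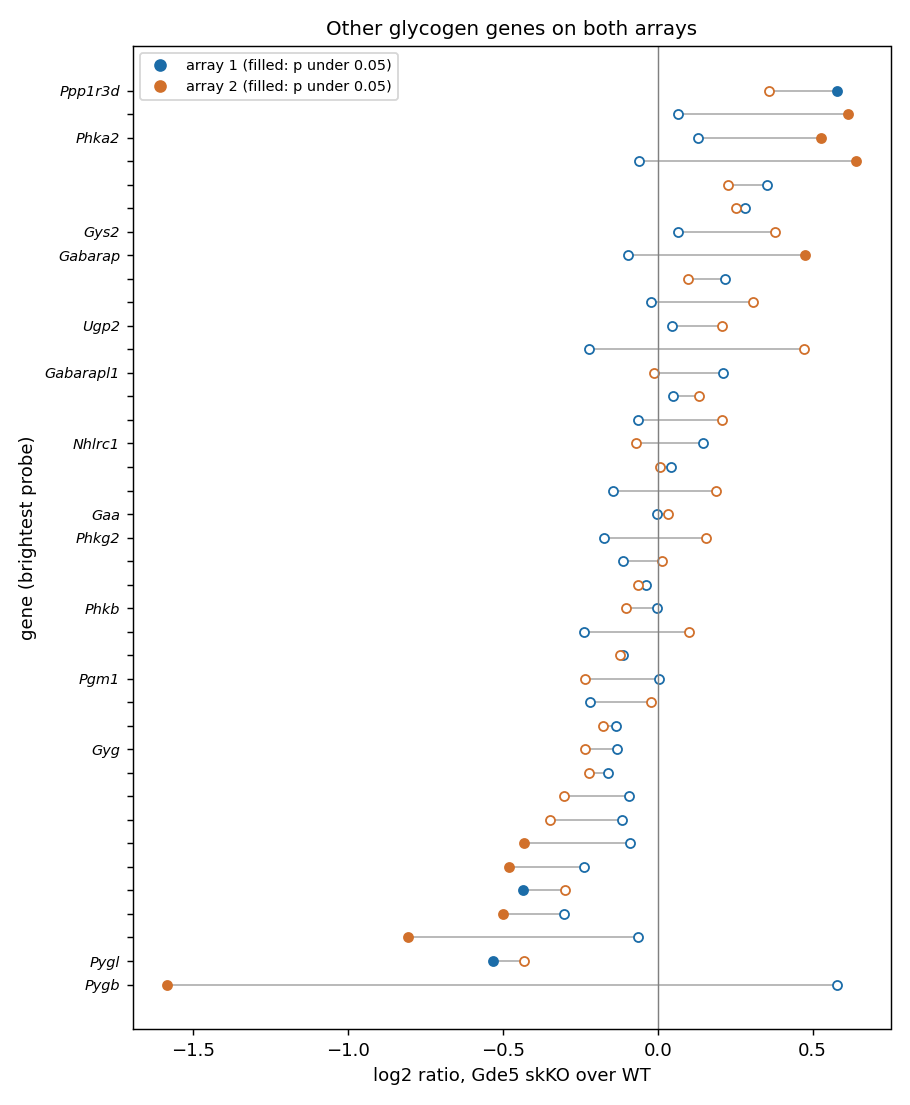
Log2 ratio of *Gde5* skKO over WT (horizontal) on each array, joined by a line, for 39 of the other glycogen genes ordered by mean ratio and named where the text gives their values, with filled points where the p-value was under 0.05. No plotted gene has filled points of both arrays, and the lines of 14 genes cross 0.

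RNA of whole muscle was measured, and in such samples fewer cells of a type and less RNA per cell cannot be told apart. Fast-muscle and general muscle genes, 13 of 13 measured, gave no call, with a median mean ratio of -0.02. Among all genes, 1.58% were called higher and 1.74% lower. Of 11 slow-fibre genes, 4 were called higher (*Myl2*, *Tnni1*, *Casq2* and *Sln*) and none lower. The slow myosin *Myh7*, with ratios of 0.30 and 0.36, was not called. Of the 11, 9 were positive on both arrays. The summed signal of the 11 was 150119 and 146895 in *Gde5* skKO against 105956 and 108028 in WT. By qPCR, the study reported comparable mRNA of muscle fibre types in both genotypes. Of 8 genes listed for adipocytes, 7 were measured (*Lep* was too dim), with a median of -0.70. Of these, 5 were called lower (*Adipoq*, *Retn*, *Cfd*, *Plin1* and *Cidec*) and 1, *Car3*, higher. Their summed signal was 85785 and 81476 in *Gde5* skKO against 65009 and 67191 in WT, the order opposite to most of the list. That sum follows its brightest probes. *Car3* gave 42553 and 40332 of it in *Gde5* skKO against 21232 and 22126 in WT. Whether the *Car3* signal came from adipocytes or from muscle fibres was not tested. *Fabp4*, also bright, had ratios of 0.13 and -0.02. Of 9 liver genes 4 were measured, with 1 called higher and 1 lower, and a summed signal of 1447 and 1543 against 2475 and 2368. Of genes that define liver, *Apoa1*, *Apoa2*, *Ttr* and *Ambp* were not well above background. *Alb* was measured, with ratios of -1.03 and -0.28. The gene called lower was *Mup1*, with a mean of -0.97, and the gene called higher was *Apoh*, with 0.81. Of 6 blood genes 4 were measured and of 7 tendon and fibroblast genes 7, with no call in either list and median ratios of -0.18 and -0.26. The part of the slow-fibre, adipocyte and liver genes in the ratios of *Stbd1*, *Epm2a* and the other glycogen genes was not tested.

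Over 17 alternative settings, single arrays included, the mean of *Stbd1* lay between 0.45 and 0.58, and that of *Gys1* between 0.28 and 0.47. With both arrays kept, the other ways of making the ratio turned the direction of *Ppp1r3a* alone, when its dim probe was averaged in. They moved *Ppp1r3c* from -0.08 to -0.19 when all probes were averaged, and *Epm2a* as given above.

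**Figure D5:**
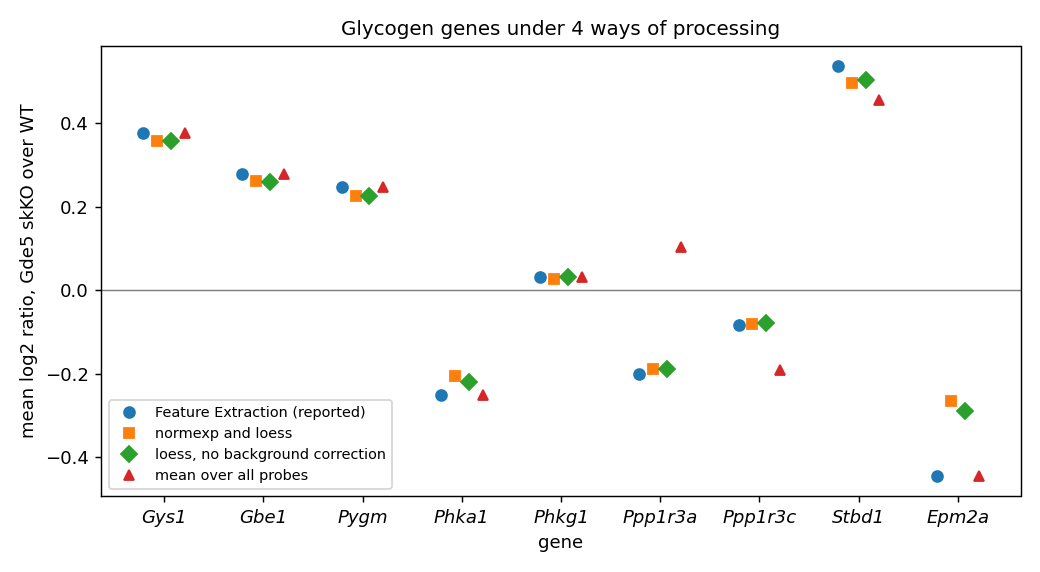
Mean log2 ratio of both arrays, *Gde5* skKO over WT (vertical), for each of the 9 glycogen genes under 4 ways of processing. The symbols of a gene lie close together except for *Ppp1r3a*, where the mean over all probes, the dim one included, is at 0.10 and the other 3 are below 0, *Ppp1r3c* and *Epm2a*.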

How the data were processed

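Two-colour arrays of GAS muscle RNA were analysed, array 1 and array 2 with the dyes exchanged, on 1 slide from 1 scan. Scans were read by the authors in Feature Extraction 9.5. Per the file headers, the authors' files hold, for every spot, the log10 of Cy5 over Cy3 with the background subtracted and the dyes normalized. The deposited files add the error of that ratio and a p-value from the software. The deposited files also hold the intensity of each spot and its background, from which limma's ratios were made. The series table, also deposited, holds the same log10 values rounded, without turning array 2.

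Each ratio was put on the log2 scale and turned to *Gde5* skKO over WT from the dyes in the labels, and spots of 1 probe were averaged. Controls and spots with outlier marks (195 and 221) were left out. Among the marked spots were those with a non-uniform background (39 and 21). Probes were named through RefSeq genes (GRCm38.p6), 24375 by accession, 6301 by symbol and 2426 by synonym, while 8071 kept the array's name. Probe coordinates are those of the array annotation (mm8), in which no exon or UTR is given. A gene was represented by its brightest probe (mean of the log2 signals of both channels and arrays), which had to stand well above background on both arrays in 1 channel or more. The p-value of the mean of spots was read from a normal distribution with their mean error.

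The 9 genes, the lists of other glycogen genes and of markers, and the rule for named genes (these genes with every probe, *Gde5*, and the closest relatives of these in the list) were chosen with earlier results of these data known. Some listed genes enter the counts and are not reported here by name. For RNA extraction the labels name QIAzol. The methods name QIAzol followed by a lipid tissue kit, and for the arrays the kit alone.

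The alternatives tried were limma 3.58.1 (R 4.3.3) with normexp (offset 50) and loess, or with loess alone, the series table, other filters and thresholds, all probes or those that passed the filter, the probe brightest in WT or by the plain mean of signals, limma's moderated test with Benjamini-Hochberg adjustment, the methods' t-test of log2 channel values, and each array alone. Tables and figures were made with matplotlib 3.10.9, scipy 1.17.1, numpy 2.4.6 and pandas 2.3.3 under Python 3.11.15. The steps were tested on simulated data. The number of arrays limits the precision.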

Additional observations from a re-analysis of the deposited data

How the results depend on the processing

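Of 153 values of the 9 genes under 17 alternatives, 141 kept their direction and their side of the threshold. Much of that count was fixed in advance. Other filters and choices of probe could not move the 6 genes with 1 probe, and a stricter threshold could not change an uncalled gene. *Stbd1*, the only gene called, kept its call in 12 of the 17, single arrays included. Several of these 12 had little or no room to lose it. The reprocessed ratios and the series table kept Feature Extraction's p-values, other filters kept the same *Stbd1* probe, and a call already requires passing on each array. The call was lost at p under 0.01, with adjustment within each array, after limma's adjustment, and by the t-test before and after adjustment. *Ppp1r3a* turned to 0.10 over all probes, the dim one included, and was 0.00 over the probes that passed the filter (a setting added after seeing the data, as was the probe brightest by the plain mean of signals). Of all genes, 214 were called higher and 236 lower, which became 107 and 127 at p under 0.01, 50 and 76 with Benjamini-Hochberg adjustment within each array, 575 and 578 by limma's unadjusted p, 37 and 68 by its adjusted p, 617 and 571 by the methods' t-test and 0 and 0 after its adjustment, and 926 to 967 and 721 to 911 with 1 array left out. The 212 genes in the dye direction became 359 with no filter, 57 with signal asked for in both channels, 72 at p under 0.01, 11 with adjustment within each array, and 633 and 0 by limma before and after adjustment. Of the 9 genes, 1 was called higher, against 0 at p under 0.01, with adjustment within each array and after adjustment of limma or the t-test, 2 by limma unadjusted (*Gys1* and *Stbd1*), and 2 without either array (*Gys1* and *Stbd1* without array 1, *Gbe1* and *Stbd1* without array 2). The t-test's 1 gene before adjustment was *Pygm*. None was called lower, against 1, *Epm2a*, by limma unadjusted and without array 2, and 0 without array 1. Of the other glycogen genes 0 were called higher, against 1 over all probes and over those that passed the filter (*Ppp1r1a*), 1 by limma unadjusted and 1 by the t-test, and 1 to 4 with 1 array left out. In the lower direction 0 became 3 over all probes, 4 over those that passed the filter, 7 by limma unadjusted, 3 by the t-test and 2 to 6 with 1 array left out. The median of the 9 genes, 0.03, was 0.10 over all probes, and that of the other glycogen genes, -0.05, was 0.0157 over all probes, -0.0087 over those that passed the filter and 0.00 with no filter. *Gde5*, at -0.26 by its brightest probe, was called at -2.33 over all probes and over those that passed the filter, at -2.93 by the probe brightest in WT (a choice made after seeing the data) or by the plain mean of signals and at -0.47 without array 1, and lay between -0.47 and -0.0505 with 1 array left out. Fewer samples enter with 1 array left out, and for the other changes the cause was not tested. Each array pairs both genotypes, so its ratios and limma's test of them are already paired. No further pairing was possible because the labels form 1 group. The t-test compared channel values of the genotypes without regard to this pairing by array. Slide and scan as a block were not run, with 1 slide. Signal over background limits *Ppp1r3a*'s dimmest probe and *Pygb*.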
